A study of Mus musculus with 10 samples.

Results

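Fibroblast growth factor (FGF) transcripts were described in cardiomyocytes isolated on day 4 after myocardial infarction (MI). The set held 10 genes, the FGF genes Fgf1, Fgf2, Fgf6, Fgf9, Fgf12, Fgf13, Fgf16, Fgf18 and Fgf21 and the receptor gene Fgfr1, of 51789 genes in the count table. Each was found by the Ensembl identifier that the GENCODE M21 annotation gives to its symbol, and each symbol had 1 identifier. The genes were chosen with their values in these libraries known, so differences between the groups are given for them as a description. How many of them passed a threshold is given once, beside the share over all genes, and nothing rests on it. The comparison was between 5 libraries of transgenic mice that overexpress the kinase GRK5 in cardiomyocytes (TgGRK5-MI) and 5 libraries of their littermates without the transgene (NLC-MI), with 1 library per mouse. Both groups had an MI by permanent ligation of the left coronary artery, and no libraries of sham-operated mice are among the 10. The study's MI experiments used young adult mice of both sexes. The promoter of the transgene, and the age and sex of each of these 10 mice, are not given in the sources used here. The log2 level of Xist less that of the summed Y-linked genes Ddx3y, Uty, Kdm5d and Eif2s3y was -8.45 to -7.30 in the 10 libraries. Y-linked RNA was thus far above Xist in all 10 libraries, which is the pattern of male mice.

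FGFs are signaling proteins that fall into 3 kinds. Paracrine FGFs leave the cell, bind heparan sulfate and activate receptor tyrosine kinases on nearby cells. FGF homologous factors stay inside the cell, where they bind voltage-gated sodium channels, and endocrine FGFs circulate and need a Klotho protein as co-receptor. In the heart, FGF signaling is known for its part in the growth of the developing myocardium and in the response to injury.

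Libraries held from 7968779 to 23381527 counts, and the median was 20540815 for NLC-MI and 18337488 for TgGRK5-MI. Values are given as CPM (counts scaled to the size of the library), scaled with the TMM method of edgeR. A floor of 3 counts corresponded to 0.121 to 0.393 CPM. Grk5, the gene of the transgene's protein, averaged 60.4 ± 9.50 CPM in the NLC-MI libraries and rose to 1222 ± 472 CPM with the transgene (SD, n = 5 each), with a log2 fold change of 4.34 with a standard error of 0.32 (edgeR quasi-likelihood test, adjusted p = 0.000245). All 10 cardiomyocyte markers were detected in the libraries, led by Myh6 with a mean of 25387 CPM. Their summed level ran from 61156 to 156771 CPM in NLC-MI and from 65044 to 125333 CPM in TgGRK5-MI. RNA of other cell types was present too, and the 10 fibroblast markers, led by Col3a1, summed to between 4511 and 24537 CPM in NLC-MI and between 4534 and 25288 CPM in TgGRK5-MI. Neither summed level differed between the groups by more than the spread of the libraries (exact two-sided permutation tests, p = 0.786 and p = 0.913). Single markers went both ways under these sums. The mean was higher in TgGRK5-MI for 4 of the 10 cardiomyocyte markers and 5 of the 10 fibroblast markers. In bulk RNA of this kind, fewer cells of a type and less RNA per cell cannot be told apart.

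The RefSeq promoter table used here gave windows for 7 of the 10 genes (Fgf2, Fgf6, Fgf9, Fgf12, Fgf13, Fgf18 and Fgf21), with 13 annotated starts in all. The 250 bases before the start are printed for 3 genes on GRCm38.p6, each 5′ to 3′ on the strand of the gene. They are Fgf6, which had the largest difference between the groups, Fgf13, the homologous factor with the highest level, and Fgf21, the gene at the floor of the depth. Capitals mark a TATAAA box, the E-box letters CANNTG and a MEF2 motif on either strand, and the windows were chosen after their motifs and the values of the genes had been seen.
Fgf6 (chr6:127015292-127015541, forward strand): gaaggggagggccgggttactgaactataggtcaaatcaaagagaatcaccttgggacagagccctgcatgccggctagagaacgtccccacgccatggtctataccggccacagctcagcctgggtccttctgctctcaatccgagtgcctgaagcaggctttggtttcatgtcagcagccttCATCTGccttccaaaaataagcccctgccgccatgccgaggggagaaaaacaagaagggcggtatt
Fgf13 (chrX:59585573-59585822, reverse strand): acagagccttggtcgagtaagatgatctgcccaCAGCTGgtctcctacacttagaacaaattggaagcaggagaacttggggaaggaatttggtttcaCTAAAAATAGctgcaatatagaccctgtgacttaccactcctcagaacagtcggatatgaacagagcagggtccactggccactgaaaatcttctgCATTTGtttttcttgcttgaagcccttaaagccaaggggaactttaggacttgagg
Fgf21 (chr7:45615491-45615740, reverse strand): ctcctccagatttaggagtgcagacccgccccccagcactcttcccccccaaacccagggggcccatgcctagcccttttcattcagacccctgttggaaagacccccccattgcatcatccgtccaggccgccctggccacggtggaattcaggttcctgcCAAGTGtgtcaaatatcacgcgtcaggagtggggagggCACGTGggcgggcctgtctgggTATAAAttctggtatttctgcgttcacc
The Fgf6 window held 1 CANNTG match, which began 66 bases before the start, and no TATAAA. The Fgf13 window held the only MEF2 match among the 13 windows, 152 bases before the start, and 2 CANNTG matches. It belongs to 1 of 4 RefSeq starts of Fgf13 and lies outside the span of the gene in GENCODE M21. The counts are per gene, so the use of each start was not measured. The Fgf21 window held the only TATAAA among the 13 windows, 28 bases before the start. It also held 2 CANNTG matches, the nearer of which, at 50 bases before the start, overlaps a GGGCGG match by 1 base. Of the upstream windows of 32851 annotated starts, 12.4% held TATAAA, 66.2% held CANNTG, 32.7% held GGGCGG and 0.508% held the MEF2 motif. The other motifs searched on both strands were GATAA (22.6% of windows), GGAAAA (20.4%) and CCAAT (33.8%). A match of letters is a description of the window and not a site of binding.

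The 10 genes spanned a wide range of levels. Per kilobase of merged exons, the mean of the 10 libraries was 39.9 CPM for Fgf1, 10.98 CPM for Fgf16 and 9.56 CPM for Fgf13. Next came Fgfr1 at 5.98 CPM, Fgf18 at 3.62 CPM and Fgf2 at 3.20 CPM per kilobase. Fgf9 was at 1.34 CPM, and Fgf6, Fgf12 and Fgf21 were the lowest at 0.315, 0.155 and 0.108 CPM per kilobase. Fgf1 lay above Fgf16 in all 10 libraries, with a ratio of the means of 3.63. Several neighbors in this order were not parted by the libraries. Fgf16 was above Fgf13 in 6 of the 10 libraries, Fgf13 above Fgfr1 in 7 and Fgf18 above Fgf2 in 5. By contrast, Fgf2 was above Fgf9, and Fgf9 above Fgf6, in all 10 libraries. The order of the upper ranks also depended on the length used, since with the longest annotated transcript Fgf13 took rank 2, Fgfr1 rank 3 and Fgf16 rank 4. Fgf1 stayed in rank 1 with either length.

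**Figure D1:**
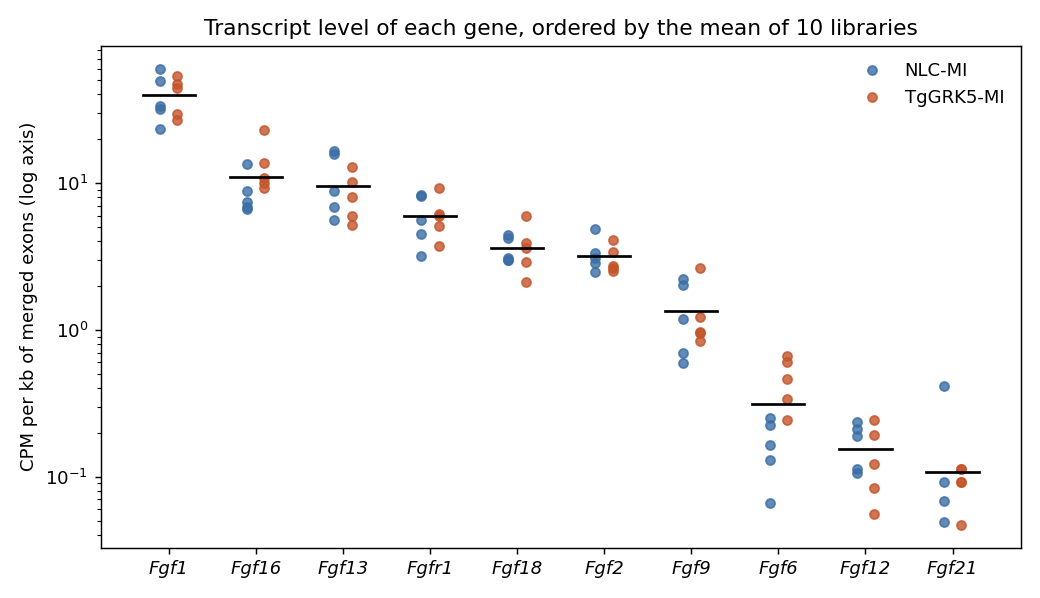
Level of each FGF gene in CPM per kilobase of merged exons (log axis), with 1 point per library and a bar at the mean of the 10 libraries. NLC-MI is blue and TgGRK5-MI is orange. Fgf1 stands above all other genes at a mean of 39.9, and Fgf21 has no point for the NLC-MI library with 0 counts, which a log axis cannot show.

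Among the 22 genes that encode FGFs in the table, homologous factors included, Fgf1 made up from 49.7% to 60.4% of the summed CPM per kilobase in each library, with a median of 55.8%. Fgf16 made up 8.91% to 22.2% and Fgf13 made up 9.97% to 18.5%. These 3 genes led the FGF transcripts by this measure. Of the 13 FGF genes outside the set, Fgf3, Fgf4 and Fgf22 had 0 counts in every library. Fgf7, Fgf11 and Fgf14 were the only others to pass the filter on low counts. Fgf11, also a homologous factor, had the highest level of the 13 at a median of 2.09% of the FGF sum.

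Of the paracrine ligands, Fgf1 and Fgf2 lack a classical signal peptide and leave the cell by other routes. Fgf1 (ENSMUSG00000036585, chromosome 18 from 38838673 to 38929472) was at 126.3, 174.7, 327.1, 182.7 and 270.4 CPM in NLC-MI replicates 1 to 5 and at 258.4, 146.5, 290.2, 241.0 and 160.1 CPM in TgGRK5-MI replicates 1 to 5. The groups overlapped over most of their range, with both the highest and the lowest library in NLC-MI. The means were 216.2 ± 80.9 and 219.2 ± 62.9 CPM (SD, n = 5 each), with a log2 fold change of 0.02 with a standard error of 0.28. Fgf2 (ENSMUSG00000037225, chromosome 3 from 37348346 to 37410108) is a mitogen of many cell types. It was at 22.7, 16.9, 33.1, 19.4 and 20.7 CPM in NLC-MI and at 22.8, 18.5, 17.9, 27.8 and 17.1 CPM in TgGRK5-MI. Here too the groups overlapped, with means of 22.6 ± 6.26 and 20.8 ± 4.48 CPM and a log2 fold change of -0.11 with a standard error of 0.21.

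The counts of Fgf2 carry a limit of their own. Its exons share 640 bases with those of Nudt6, which lies on the opposite strand, and a strand setting of the counting is not given in the sources used here. Of the 50-base stretches of its transcripts, 10.9% were also in transcripts of 2 other genes, read on either strand. This share can hold the bases that overlap Nudt6, so it is not taken as a separate limit. Nudt6 itself was at 11.8, 12.1, 15.7, 13.4 and 26.2 CPM in NLC-MI and at 15.6, 11.1, 21.9, 14.2 and 14.7 CPM in TgGRK5-MI, a log2 fold change of -0.03 with a standard error of 0.25. Gm43439, which shares 255 exon bases with Fgf2 on the same strand, had 0 counts in all libraries. The share of 50-base stretches found in other genes was 1.49% for Fgfr1 and at most 0.747% for every other gene of the set.

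Fgf6 had the largest difference between the groups. The gene (ENSMUSG00000000183, chromosome 6 from 127015586 to 127028187, 3 exons) encodes a secreted ligand best known from skeletal muscle and its regeneration. It was at 0.308, 0.769, 1.18, 0.610 and 1.05 CPM in NLC-MI and at 2.15, 1.57, 1.13, 2.80 and 3.11 CPM in TgGRK5-MI. TgGRK5-MI replicate 3 lay inside the NLC-MI range, and the other 4 TgGRK5-MI libraries lay above the highest NLC-MI library. The means were 0.782 ± 0.347 and 2.15 ± 0.826 CPM (SD, n = 5 each), with a fold of 2.89 and a log2 fold change of 1.53 with a standard error of 0.39. These levels rest on few reads, 7 to 19 counts in the NLC-MI libraries and 13 to 58 counts in the TgGRK5-MI libraries. Leaving out 1 library at a time gave log2 fold changes between 1.28 and 1.68.

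Markers of skeletal muscle were looked at because Fgf6 is known from that tissue. Their summed level ran from 1756 to 3295 CPM in NLC-MI and from 1693 to 4097 CPM in TgGRK5-MI, with a log2 difference of 0.23 (exact two-sided permutation test, p = 0.413). Most of this sum came from Ckm and Acta1, which cardiomyocytes also express. The value was 0.0845 without TgGRK5-MI replicate 3, and as a mean of the log2 CPM of the genes it turned to -0.18. Of the other 8 genes of the list, the regulators Pax7, Myod1 and Myog had 0, 0 to 4 and 0 to 5 counts per library. The myosin genes Myh1, Myh2 and Myh4 had 0 to 49, 0 to 38 and 0 to 26 counts per library. Their means were 1.35, 1.02 and 0.690 CPM in NLC-MI and 0.114, 0.0568 and 0.0305 CPM in TgGRK5-MI. Their values in each library are not given here, and means of counts this low can rest on 1 library. Tnnt3 had 34 to 458 counts per library, with means of 12.6 CPM (NLC-MI) and 8.49 CPM (TgGRK5-MI), and Mylpf had 6 to 24 counts. The part of skeletal muscle RNA in the level of Fgf6 was not tested.

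Fgf9 and Fgf16 belong to the same ligand subfamily, and Fgf16 is known for its expression in the heart. Fgf16 (ENSMUSG00000031230, chromosome X from 105764279 to 105774939) was at 12.2, 10.9, 14.5, 11.4 and 22.2 CPM in NLC-MI and at 22.5, 16.3, 37.6, 17.9 and 15.2 CPM in TgGRK5-MI. All 5 TgGRK5-MI libraries lay above the NLC-MI mean and 2 of them above the highest NLC-MI library, while NLC-MI replicate 5 lay above 3 TgGRK5-MI libraries. The means were 14.2 ± 4.67 and 21.9 ± 9.22 CPM (SD, n = 5 each), with a fold of 1.54 and a log2 fold change of 0.62 with a standard error of 0.28. One library weighed on this value, since without TgGRK5-MI replicate 3 the log2 fold change was 0.33. Without NLC-MI replicate 5 it was 0.83.

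Fgf9 (ENSMUSG00000021974, chromosome 14 from 58070547 to 58112720) was at 5.55, 3.24, 9.42, 2.77 and 10.3 CPM in NLC-MI and at 5.68, 4.45, 12.3, 4.52 and 3.92 CPM in TgGRK5-MI. The groups overlapped, with TgGRK5-MI replicate 3 far above the other libraries of its group. The log2 fold change was -0.01 (standard error 0.43) with all libraries and -0.42 without that library. Fgf18 (ENSMUSG00000057967, chromosome 11 from 33117430 to 33147400) encodes a ligand known for its part in bone and cartilage. It ran from 3.52 to 5.23 CPM in NLC-MI and from 2.53 to 7.04 CPM in TgGRK5-MI, where replicate 3 was again the highest. Its log2 fold change was 0.06 (standard error 0.27).

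**Figure D2:**
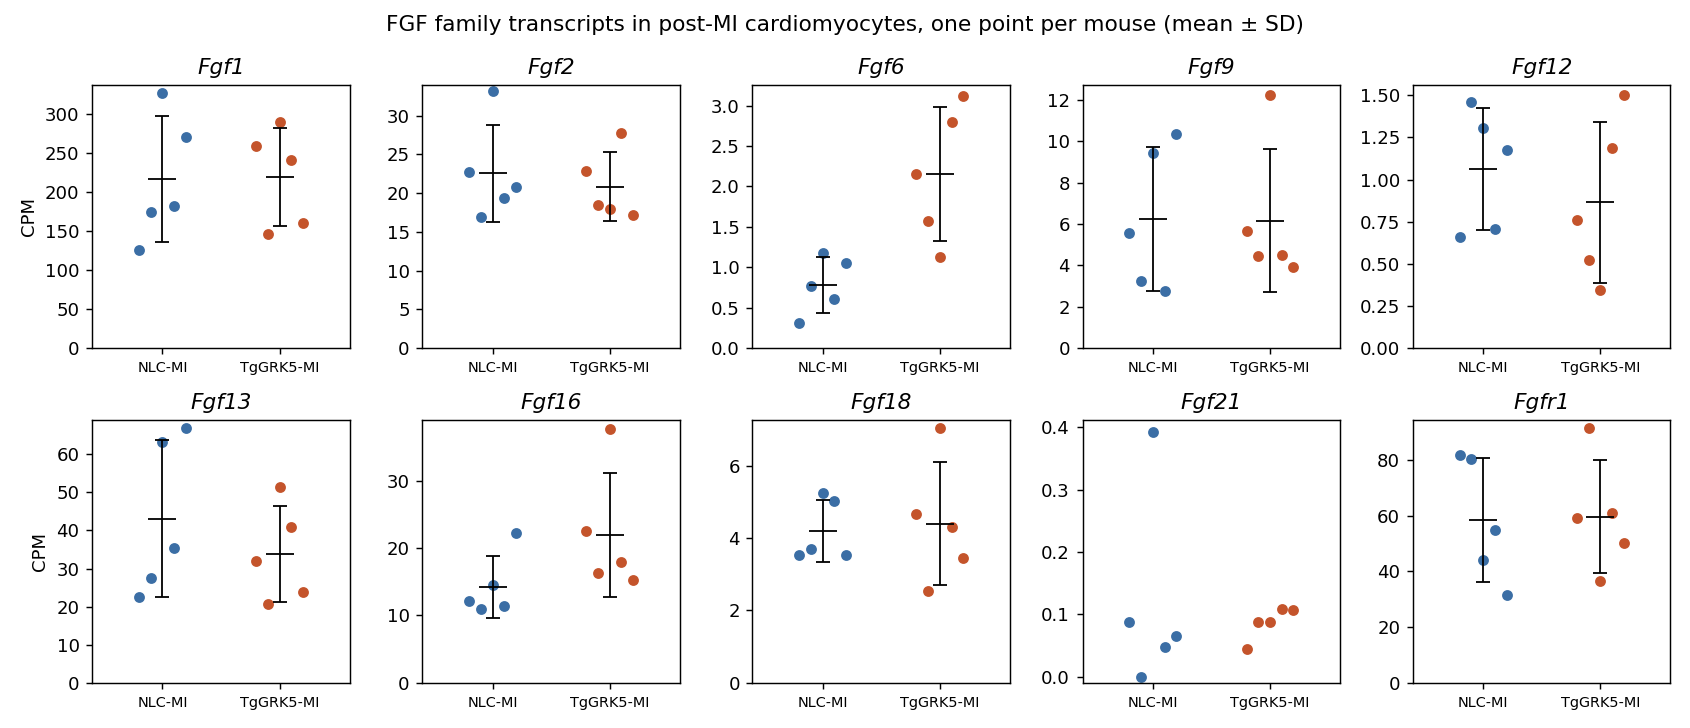
CPM of the 10 FGF genes with 1 point per mouse, in order of replicate number from left to right, and the mean ± SD of each group (points alone for Fgf21, at 0 to 3 counts). The 5 NLC-MI libraries are blue and the 5 TgGRK5-MI libraries are orange, and in no panel do the groups separate fully. For Fgf6, 4 of the 5 TgGRK5-MI points lie above all NLC-MI points.

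Fgf12 and Fgf13 are homologous factors that bind the cytoplasmic tail of sodium channels. Fgf13 (ENSMUSG00000031137, chromosome X from 59062145 to 59568071) was at 22.4, 27.4, 63.2, 35.5 and 66.8 CPM in NLC-MI and at 32.1, 20.8, 51.3, 40.9 and 23.8 CPM in TgGRK5-MI. The highest library was in NLC-MI and the lowest in TgGRK5-MI, and the groups overlapped. The means were 43.1 ± 20.6 and 33.8 ± 12.5 CPM (SD, n = 5 each), with a log2 fold change of -0.35 with a standard error of 0.34. Fgf12 (ENSMUSG00000022523, chromosome 16 from 28160098 to 28753068) was at 0.661, 1.46, 1.31, 0.704 and 1.18 CPM in NLC-MI and at 0.760, 0.524, 0.348, 1.18 and 1.503 CPM in TgGRK5-MI. Its lowest library held 4 counts, and the log2 fold change was -0.28 (standard error 0.41). Per kilobase, Fgf13 exceeded Fgf12 in every library, 9.56 against 0.155 CPM on average.

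Fgf21, an endocrine factor released by the liver and by stressed tissues, was at the floor of the depth. The gene (ENSMUSG00000030827, chromosome 7 from 45613886 to 45615490) had 2, 0, 3, 1 and 1 counts in NLC-MI and 1, 2, 1, 1 and 2 counts in TgGRK5-MI. No library exceeded 3 counts, so a difference between the groups was not detectable at this depth, and no fold is given. Klb, which encodes the co-receptor that Fgf21 needs, had at most 2 counts per library. Kl, the co-receptor for another endocrine FGF, had at most 5 counts per library. A list of 14 genes was tested in full. It held genes of the amino acid and mitochondrial stress response and of fasting metabolism (Ppara and Ppargc1a), states in which Fgf21 is known to rise. Of these 14 genes, 0 had an unadjusted p under 0.05 in edgeR's quasi-likelihood test, where 3.85% of all genes tested did, and their median log2 fold change was 0.01.

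Fgfr1 (ENSMUSG00000031565, chromosome 8 from 25513654 to 25575718) encodes the receptor tyrosine kinase through which most paracrine FGFs can signal. It was at 81.9, 80.2, 44.1, 54.8 and 31.4 CPM in NLC-MI and at 59.1, 91.4, 36.7, 60.9 and 50.3 CPM in TgGRK5-MI. The groups overlapped, with means of 58.5 ± 22.2 and 59.7 ± 20.2 CPM (SD, n = 5 each) and a log2 fold change of 0.03 with a standard error of 0.29. Per kilobase of merged exons its mean over the 10 libraries was 5.98 CPM, beside 6.12 CPM for Fgfrl1, a receptor that lacks the kinase domain. With the longest transcript as length the order turned, at 11.7 CPM for Fgfr1 and 7.31 CPM for Fgfrl1. Fgfrl1, Fgfr3 and Fgfr2 had log2 fold changes of 0.06 (standard error 0.24), -0.16 (0.30) and -0.22 (0.57). For each of these 3 the edgeR adjusted p was 1.000 after rounding. Fgfr4 had at most 6 counts per library.

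Over the set as a whole, 9 of the 10 genes passed the filter on low counts, with Fgf21 below it. Of the 9, 0 had an adjusted p under 0.10 in edgeR's quasi-likelihood test, where 0.0788% of all 15232 genes tested did. At an unadjusted p under 0.05, 2 of the 9 genes (Fgf6 and Fgf16, both higher in TgGRK5-MI) were past the threshold, where 3.85% of all genes were past it in either direction and 1.77% were past it and higher. DESeq2's Wald test and limma-voom each placed 1 gene of the set under an adjusted p of 0.10 (0.397% and 0.328% of all genes tested) and 2 genes under an unadjusted p of 0.05 (2.97% and 11.9%). For 0 genes of the set did all libraries of one group lie above all of the other, against 1% of all genes. The log2 fold change was above 0 for 5 genes and below 0 for 4 genes, with a median of 0.02 against 0.00 over all genes tested and 50.2% of all genes above 0. Fgf16 was not past the unadjusted threshold in 6 of the 10 fits that left out 1 library, nor with RLE size factors, the replicate block, the Xist and Y-linked covariate or the 7 deepest libraries. Fgf6 was past it in all 10 fits that left out 1 library and did not enter the fit with at least 10 counts in every library. These genes were chosen on this contrast, so the counts describe the set and nothing is read from them.

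**Figure D3:**
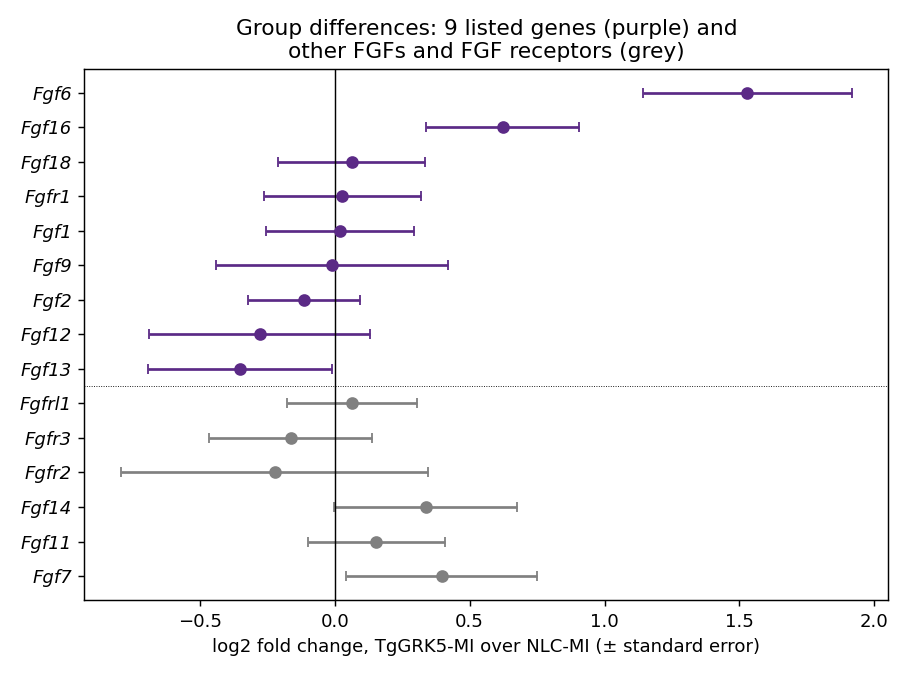
Log2 fold change of TgGRK5-MI over NLC-MI with its standard error from edgeR, for the 9 FGF genes of the set that passed the filter on low counts (purple) and for the other FGF and FGF receptor genes that passed it (grey). Fgf6 at 1.53 and Fgf16 at 0.62 lie farthest to the right, and Fgf13 at -0.35 lies farthest to the left.

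Levels of Fgfr1, Fgf1 and Fgf13 varied from library to library along with the fibroblast and cardiomyocyte markers. The relations were examined over the 10 libraries for the 9 genes against each marker list and the library total, 27 relations in all, and they were chosen after the values had been seen. Log2 levels of Fgfr1 followed the fibroblast list with a Pearson r of 0.966 (permutation p = 1e-05, the smallest that the permutations can give, adjusted p = 0.00027) and a Spearman rho of 0.964 (permutation p = 4e-05, adjusted p = 0.00108). Without the 2 libraries farthest from the median of the fibroblast list, r was 0.946, and with the group means removed it was 0.967. Against the cardiomyocyte list, Fgfr1 had an r of -0.879 (permutation p = 0.00074, adjusted p = 0.00999) and a rho of -0.842 (permutation p = 0.00374, adjusted p = 0.0259), with an r of -0.689 without the 2 farthest libraries. The 3 libraries with the highest Fgfr1, NLC-MI replicates 1 and 2 and TgGRK5-MI replicate 2, were also the 3 with the highest fibroblast sums.

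Fgf13 went the other way. Its r was -0.845 against the fibroblast list (permutation p = 0.00328, adjusted p = 0.0295; rho -0.867, permutation p = 0.00202, adjusted p = 0.0259) and -0.808 without the 2 farthest libraries. Against the cardiomyocyte list its r was 0.791 (permutation p = 0.00486, adjusted p = 0.0328; rho 0.794, permutation p = 0.00849, adjusted p = 0.0458) and 0.622 without the 2 farthest. Fgf1 had an r of -0.742 against the fibroblast list (permutation p = 0.0198, adjusted p = 0.0764; rho -0.758, permutation p = 0.0152, adjusted p = 0.0684), with -0.683 without the 2 farthest. Against the cardiomyocyte list its r was 0.730 (permutation p = 0.0137, adjusted p = 0.074; rho 0.842, permutation p = 0.00384, adjusted p = 0.0259), with 0.776 without the 2 farthest. No such relation was detected for Fgf6, with an r of -0.198 (permutation p = 0.579, adjusted p = 0.716) and a rho of 0.03 (permutation p = 0.946, adjusted p = 0.984) against the fibroblast list, and an r of -0.208 without the 2 farthest libraries. For Fgf16 the r against the cardiomyocyte list was 0.662 (permutation p = 0.0396, adjusted p = 0.102; rho 0.491, permutation p = 0.155, adjusted p = 0.262), with 0.278 without the 2 farthest libraries and 0.874 with the group means removed. Against the fibroblast list it was -0.544 (permutation p = 0.101, adjusted p = 0.195; rho -0.382, permutation p = 0.279, adjusted p = 0.443), with -0.486 without the 2 farthest and -0.676 with the group means removed. The fibroblast and cardiomyocyte lists were themselves related with an r of -0.770, and all values are shares of the same library total, so the relations are not independent. Against the library total, 0 of the 9 genes had an adjusted permutation p under 0.05. The strongest r was -0.741 for Fgf2 (permutation p = 0.0169, adjusted p = 0.076). Without the 2 libraries farthest from the median total it was 0.210. For Fgf1 and Fgf13, r was -0.658 and -0.650 (permutation p = 0.0413 and 0.0414, adjusted p = 0.102 for both). Without the 2 farthest, r was -0.546 for Fgf1 and -0.603 for Fgf13. Fgfr1 went the other way at 0.435 (permutation p = 0.208, adjusted p = 0.311). The part of depth in these levels was not tested.

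**Figure D4:**
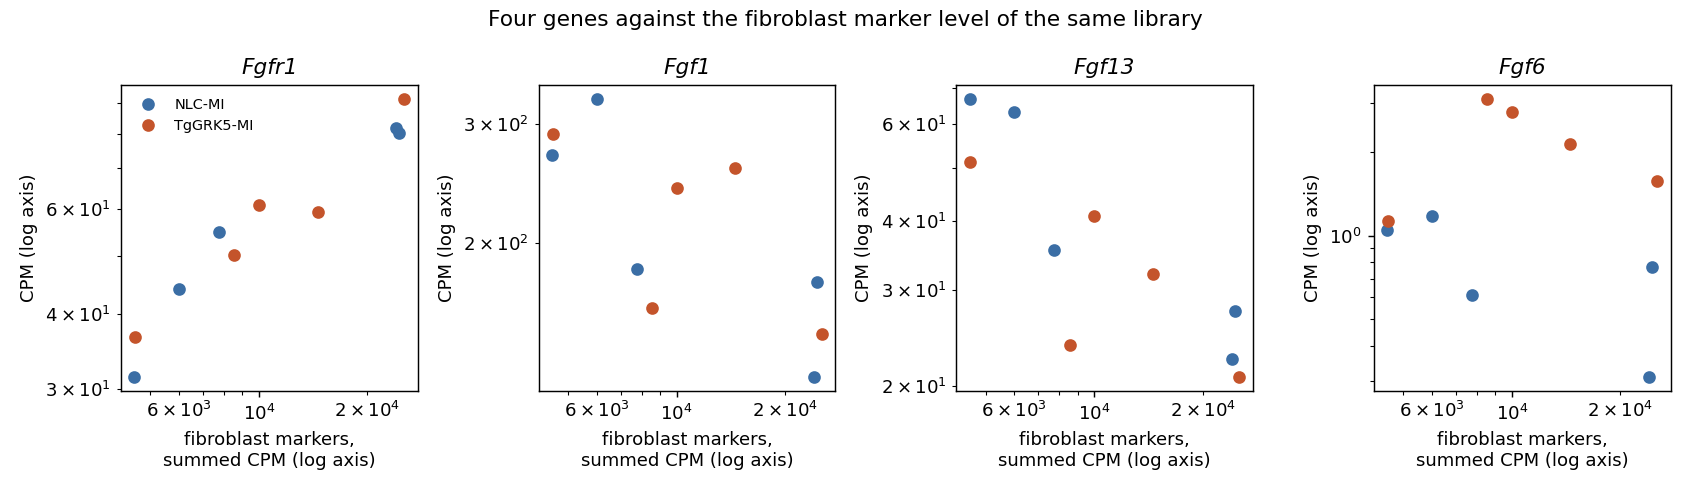
CPM of Fgfr1, Fgf1, Fgf13 and Fgf6 (log axis) against the summed CPM of the 10 fibroblast markers (log axis), with 1 point per library, NLC-MI in blue and TgGRK5-MI in orange. Fgfr1 climbs with the fibroblast sum (r = 0.966), Fgf13 declines (r = -0.845), and Fgf6 had an r of -0.198. Fgf6 was chosen with its group difference known and rests on 7 to 58 counts per library, so its panel is a description.

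The fibroblast sum of each library was also entered into the edgeR fit as a covariate, an alternative added after the data had been seen. The log2 fold change was then 1.56 for Fgf6, 0.62 for Fgf16, -0.26 for Fgf13 and 0.03 for Fgfr1. The genes were chosen with this contrast known, so these values describe them only. In the 7 deepest libraries alone, also added later, Fgf6 was at 1.75 and Fgf16 at 0.34. The latter setting leaves out NLC-MI replicate 3 and TgGRK5-MI replicates 3 and 4. Of these, TgGRK5-MI replicate 3 had the highest Fgf16 of all libraries and the lowest Fgf6 of its group. NLC-MI replicate 3 had the highest Fgf6 of its group, so the Fgf6 value also depends on which libraries are left out. Macrophage and monocyte markers summed to 719 to 2162 CPM in NLC-MI and 1170 to 2419 CPM in TgGRK5-MI, a log2 difference of 0.43 (exact two-sided permutation test, p = 0.278) that was 0.27 without NLC-MI replicate 3 and 0.66 without NLC-MI replicate 1. Their part in the levels of the FGF genes was not tested.

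The other genes of FGF signaling were taken from 8 hand-written lists with 106 genes, of which 103 had counts and 87 were tested. The lists were chosen with earlier results of these data known. At an adjusted p under 0.10 in edgeR's quasi-likelihood test 0 of the 87 genes were past the threshold, and at an unadjusted p under 0.05 there were 3 higher and 2 lower genes (1.77% and 2.08% of all genes tested). The number of lower genes was 4 without NLC-MI replicate 1 or TgGRK5-MI replicate 1, and 5 without NLC-MI replicate 5 or TgGRK5-MI replicate 3. DESeq2 and limma-voom gave 0 genes at an adjusted p under 0.10 in either direction. The median log2 fold change of the 87 genes was -0.02, and 42 of them were above 0. None of the 13 co-receptor and binding protein genes tested, the 13 genes of heparan sulfate synthesis tested or the 13 feedback inhibitor and target genes tested (such as the Sprouty and Etv genes) had an unadjusted p under 0.05, and their medians were 0.04, -0.03 and -0.09. Of the 18 receptor adaptor and kinase genes, 1 gene was past the unadjusted threshold. This was Mapk3, which encodes the kinase ERK1, with 71.0 ± 8.04 CPM for NLC-MI and 90.2 ± 11.5 CPM for TgGRK5-MI (SD, n = 5 each), with a log2 fold change of 0.35 with a standard error of 0.14 (edgeR adjusted p = 1.000 after rounding).

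The other 4 of these genes were channel genes, from the list of 13 channel subunits and partners that includes the binding partners of Fgf12 and Fgf13. Of its 10 genes tested, 2 were higher and 2 were lower at an unadjusted p under 0.05 (1.77% and 2.08% of all genes tested). This list too was chosen with earlier results of these data known, so nothing is read from the count. Scn3b, a sodium channel beta subunit, was low at 0.740 ± 0.311 CPM for NLC-MI and 1.74 ± 0.943 CPM for TgGRK5-MI (SD, n = 5 each), with a log2 fold change of 1.15 with a standard error of 0.40. Cacna1c, the pore-forming subunit of the cardiac L-type calcium channel, was at 210.4 ± 74.1 and 123.4 ± 28.1 CPM, a log2 fold change of -0.77 with a standard error of 0.26. The edgeR adjusted p was 1.000 after rounding for Scn3b and for Cacna1c, and the groups overlapped for both genes. For the homologous factors themselves the log2 fold changes were -0.35 (Fgf13) and -0.28 (Fgf12), and for Fgf11 and Fgf14, which were not in the set, they were 0.15 (standard error 0.25) and 0.34 (standard error 0.34).

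**Figure D5:**
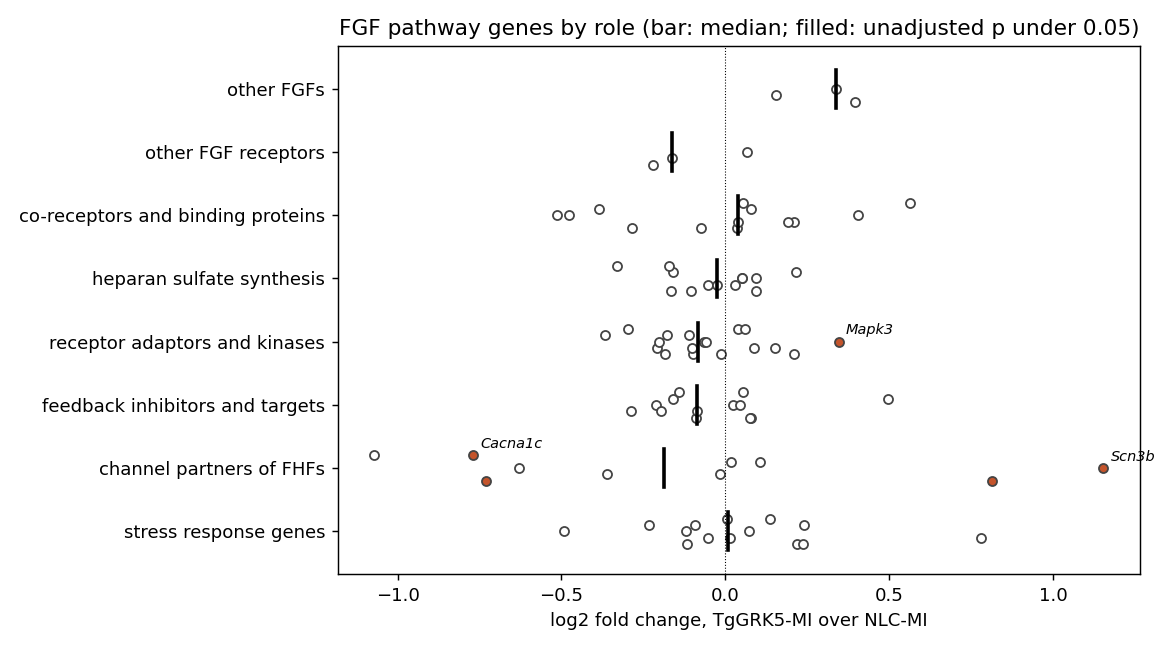
Log2 fold change of TgGRK5-MI over NLC-MI for the 87 FGF signaling genes tested, with 1 point per gene, 1 row per list and a bar at the median of each list (FHFs are the FGF homologous factors). Filled points are the 5 genes with an unadjusted p under 0.05 (3.85% of all genes tested were under it). Of these 5, 4 lie in the channel list, on both sides of 0, and 3 of the 5 are labelled by name. The lists were chosen with earlier results of these data known.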

How the data were processed

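Libraries of cardiomyocyte RNA from 10 mice, 5 NLC-MI and 5 TgGRK5-MI, were made with an Illumina TruSeq RNA kit. The authors deposited 1 table of read counts, whole numbers listed by Ensembl gene and not normalized. The submitters' processing notes name Bowtie2, RSEM 1.2.31, DESeq2 and the build mm10 without their roles. RSEM gives estimated counts, so the values may be rounded estimates. The strand setting and annotation version are not given in the sources used here. Libraries were grouped by their labels, which give 1 sample per mouse.

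Symbols, positions and lengths came from GENCODE M21 on GRCm38 (51596 of 51789 identifiers). In R 4.3.3 with edgeR 4.0.16, counts were normalized with TMM, filtered with filterByExpr by group (15232 of 28506 genes with a total above 0) and compared with the quasi-likelihood F test, with p-values adjusted by the Benjamini-Hochberg method over all genes tested. CPM used the TMM factors, and log2 CPM a prior count of 2. Marker lists were compared with exact two-sided permutation tests of their log2 summed CPM, with p adjusted over the lists. Correlations used 1e+05 permutations. Promoters came from RefSeq tables on GRCm38.p6.

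The members and lists were chosen with earlier results of these data known. Named were all members, Grk5, genes whose exons overlap a member, FGF receptors and Klotho genes, pathway genes with an unadjusted p under 0.05 (some items are not reported here), and the highest and lowest genes of marker lists where reported. Pax7, Myod1, Myog and Acta1 were named after their values were seen, as were other skeletal muscle and atrial markers, Ppara, Ppargc1a, and the other FGFs with 0 counts or past the filter.

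Alternatives were library size alone, RLE size factors, limma-voom (limma 3.58.1), DESeq2 1.42.0, other filters, a block for the replicate number, a covariate of Xist less Y-linked log2 CPM, each library left out and another gene length. A fibroblast covariate and the 7 deepest libraries were added after the data had been seen. On simulated counts with 200 changed genes among 15232, edgeR recovered 62.5% (40% at a fold of 2, 85% at a fold of 4), with 11.3% of its calls false. DESeq2 recovered 73% with 32.7% false, and limma-voom 57% with 9.52% false.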

Additional observations from a re-analysis of the deposited data

Results flagged for a closer look

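Among 58 groups of 5 libraries examined for a library that stands apart by Dixon's criterion, 3 were picked out, and chance alone picks out about 1 in 20. Fgf9 was at 12.3 CPM in TgGRK5-MI replicate 3, while the remaining libraries of its group ran from 3.92 to 5.68 CPM. Mapk3 was at 70.2 CPM in TgGRK5-MI replicate 1, against 92.8 to 99.7 CPM in the other libraries of that group. The erythroid markers summed to 220.9 CPM in NLC-MI replicate 3, against 5.50 to 16.8 CPM in the other NLC-MI libraries.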

How the results depend on the processing

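The log2 fold changes of Fgf6, Fgf16, Fgf12 and Fgf13 kept their sign under all alternatives that gave a value, from 1.28 to 1.78 for Fgf6, 0.33 to 0.83 for Fgf16, -0.61 to -0.10 for Fgf12 and -0.58 to -0.04 for Fgf13. With at least 10 counts required in every library, Fgf6 and Fgf12 gave no value. The alternatives use the same 10 libraries or a part of them, and the genes were chosen with this contrast known. A kept sign is thus a description. In the main fit the value was -0.28 (standard error 0.41) for Fgf12 and -0.35 (standard error 0.34) for Fgf13. The other 5 genes lay near 0 and changed sign under some alternatives, from -0.14 to 0.23 for Fgf1, -0.24 to 0.17 for Fgf2, -0.42 to 0.38 for Fgf9, -0.18 to 0.26 for Fgf18 and -0.25 to 0.17 for Fgfr1. Grk5 stayed between 4.18 and 4.53. With the longest transcript as length, levels per kilobase were 54.7 CPM for Fgf1, 15.4 for Fgf13, 11.7 for Fgfr1 and 0.233 for Fgf12.

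Of all genes tested, 8 were higher and 4 lower at an adjusted p under 0.10 in edgeR. The higher and lower counts were 42 and 27 with DESeq2 (which tested more genes), 41 and 9 with limma-voom, 1 and 1 with the Xist and Y-linked covariate, 19 and 10 with the fibroblast covariate and 5 and 1 in the 7 deepest libraries. The higher count was 13 with library size alone or without a filter and 4 with at least 10 counts in every library. At an unadjusted p under 0.05, against 269 higher and 317 lower, limma-voom gave 1138 and 672, no filter gave 516 and 647, DESeq2 gave 493 lower and the fibroblast covariate 568 higher. Of the pathway genes, 4 were lower with library size alone, without a filter or with the fibroblast covariate, and 5 were higher with either covariate. The Xist and Y-linked covariate ran from -8.38 to -7.30 in NLC-MI and from -8.45 to -8.31 in TgGRK5-MI. Y-linked genes were far above Xist in all 10 libraries, the male pattern, so the covariate does not part male from female mice here. Where no cause is named, the cause was not tested.

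Same-numbered libraries are different mice, and their deviations had correlations from -0.341 to 0.662 (mean 0.172), with 2 of 10 libraries closest to their own number, so the numbers were not taken as pairs. The replicate block gave 5 higher and 3 lower genes at an adjusted p under 0.10, and log2 fold changes of 1.53 for Fgf6 and 0.59 for Fgf16.

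With each library left out, the counts at an adjusted p under 0.10 ran from 2 to 7 higher and 1 to 3 lower, those at an unadjusted p under 0.05 from 176 to 591 higher and 264 to 536 lower, and the lower pathway genes from 2 to 5. The log2 difference of marker lists then ran from -0.21 to 0.13 for cardiomyocytes, -0.33 to 0.17 for atrial cardiomyocytes, -0.17 to 0.068 for endothelium, -0.27 to 0.35 for fibroblasts, -0.028 to 0.18 for smooth muscle, -0.063 to 0.30 for neutrophils, -0.25 to 0.30 for Schwann cells, -0.49 to 0.84 for erythroid cells, 0.27 to 0.66 for macrophages, 0.096 to 0.75 for mesothelium and 0.0845 to 0.40 for skeletal muscle. As a mean of log2 CPM, the difference turned to -0.11 for smooth muscle, -0.086 for Schwann cells and -0.18 for skeletal muscle.

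Fgf6, Fgf12 and Fgf21 rest on few counts, and a change in them is limited by depth. The counts are per gene, so isoforms of Fgf12, Fgf13 and Fgfr1 were not separated. The p-values of the group comparisons set a difference against the spread between 5 mice a group, all taken on day 4 after MI.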

Other observations

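Beside the lists given with the FGF genes, 7 further marker lists were measured. The log2 difference of their summed CPM, TgGRK5-MI less NLC-MI, was -0.10 for atrial cardiomyocytes (led by Nppa), -0.05 for endothelium (Cdh5), 0.08 for smooth muscle and pericytes (Acta2), 0.16 for neutrophils (Csf3r), 0.42 for mesothelium (Upk3b), 0.09 for Schwann cells and neurons (Uchl1) and -0.08 for erythroid cells (Hbb-bs). Nppa made up most of the atrial sum, and 0 of the 6 atrial markers had a higher mean in TgGRK5-MI. Myl7 averaged 32.9 CPM (NLC-MI) and 13.6 CPM (TgGRK5-MI), and Bmp10 averaged 6.19 and 1.13 CPM in the same order. Myl7 had 34 to 1351 counts per library and Bmp10 had 0 to 472, so single libraries can carry these means. The means of the other atrial genes were 47.0 and 26.4 CPM for Myl4, 7.32 and 4.46 for Sln, 19.9 and 18.6 for Nr2f2 and 2395 and 2330 for Nppa. As a mean of the log2 CPM of the genes, the atrial difference was -0.58 (exact permutation test, p = 0.294) and the neutrophil difference 0.38 (exact permutation test, p = 0.183). Over all 11 lists, the exact permutation test of the summed CPM adjusted over the lists gave p = 0.960 for each.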
